A study of Rattus norvegicus with 25 samples.

Results

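The mitosis genes were a list of 38 genes whose products act when a cell enters mitosis, separates its chromosomes and divides. The members were chosen by gene name, as the rows of the deposited table that carried a listed name, and the transcripts of a gene were summed. A row matched 37 of the 38 names, and the cyclin gene Ccnb2 was not analysed here. These 37 genes stood among 30547 genes in the table. All 37 passed the filter of at least 2 CPM (reads scaled to a common library total) in at least 1 library, as did 16092 genes in all, and 33 of the 37 reached this level in every library.

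RNA sequencing of the gingiva, the gum tissue around the teeth, was performed in 25 wild-type Sprague-Dawley rats, with 5 rats in each group. The EP group had experimental periodontitis, made with a 4–0 silk ligature on the maxillary first molars of both sides and with P. gingivalis, a bacterium of periodontal pockets, and 3 further groups had the same model with a weekly injection of 200 µL of hydrogel into the pocket for 4 weeks: Cur gel (curcumin, a plant polyphenol), ZNP gel (zinc oxide nanoparticles) or Cur/ZNP gel (both). The sham group had no periodontitis and was given hydrogel as a control. All rats were 6 weeks old by the labels, while the study's methods give an older age and male sex. Whether EP rats received a drug-free gel is not stated in the sources used here.

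In a dividing cell, the kinase Cdk1 and its cyclins start mitosis, the Aurora and Polo kinases build the spindle, and the kinetochores hold the chromosomes on it. A checkpoint holds the cell until every chromosome is attached, after which the anaphase-promoting ligase destroys the cyclins and the cell is cut apart. The transcripts of these genes are made mostly in late cell cycle and are removed after division, which is why they serve as markers of cycling cells. In healthy gingiva, cell division takes place mainly in the basal layer of the epithelium.

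The libraries held 50690789 to 81791804 reads assigned to genes. Values are normalized counts, which are reads divided by 1 size factor per library, and they compare libraries within a gene but not genes with each other. Several libraries held RNA of other tissues. A list of 6 nasal gland genes took 16.6 to 21.9% of the reads in EP 3, EP 4 and Sham 4, against 0.00188 to 0.104% in the other 22 libraries. The summed normalized count of 9 autonomic neuron markers was 41600 to 104964 in Sham 1, Sham 3 and Sham 4 and 36060 in Cur/ZNP 2, against 25 to 1338 in all other libraries. That of 6 salivary gland markers was 2004 to 1993551 in sham, 34728 to 7786833 in EP and 2696400 to 6914323 with Cur gel. It was 149121 to 5042016 with ZNP gel and 2399 to 4569898 with Cur/ZNP gel.

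The transcripts of mitosis were lower in gingiva with periodontitis than in sham gingiva. Of the 37 genes, 34 were lower in EP than in sham and 0 were higher, while 18.8% of all genes tested were lower and 18.8% were higher (limma, Benjamini-Hochberg adjusted p under 0.05). The median difference of the 37 genes was -1.35 on the log2 scale, against 0.01 over all genes. Among the genes that passed, the differences ran from -2.21 for Ube2c to -0.91 for Ncaph. For 29 of the 37 genes every EP library lay below every sham library, which was so for 8.47% of all genes. Since whole tissue was sequenced, fewer dividing cells, less RNA per cell and a different mix of tissues in the samples cannot be told apart.

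The 3 groups given a gel also lay below sham. In the Cur gel group 34 of the 37 genes were lower than in sham, with a median difference of -1.68 on the log2 scale, against 19.1% of all genes. In the ZNP gel group 32 were lower, with a median of -1.33, against 15.4% of all genes. In the Cur/ZNP gel group 35 were lower, with a median of -1.59, against 19.5% of all genes. Every library lay below every sham library for 29 of the 37 genes under Cur gel (8.84% of all genes), for 25 under ZNP gel (6.79%) and for 33 under Cur/ZNP gel (9.26%). None of the 37 genes was higher than sham in these 3 comparisons by limma, by edgeR or by DESeq2, and none was higher at an unadjusted p under 0.05 by limma, while 18.9%, 16.7% and 20.2% of all genes passed as higher. The medians over all genes were -0.03, -0.01 and -0.06 in the same order of gels. All 4 comparisons use the same 5 sham libraries. With each library scaled to its total reads, the count in the ZNP gel group was 21 of 37, against 2.98% of all genes.

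**Figure D1:**
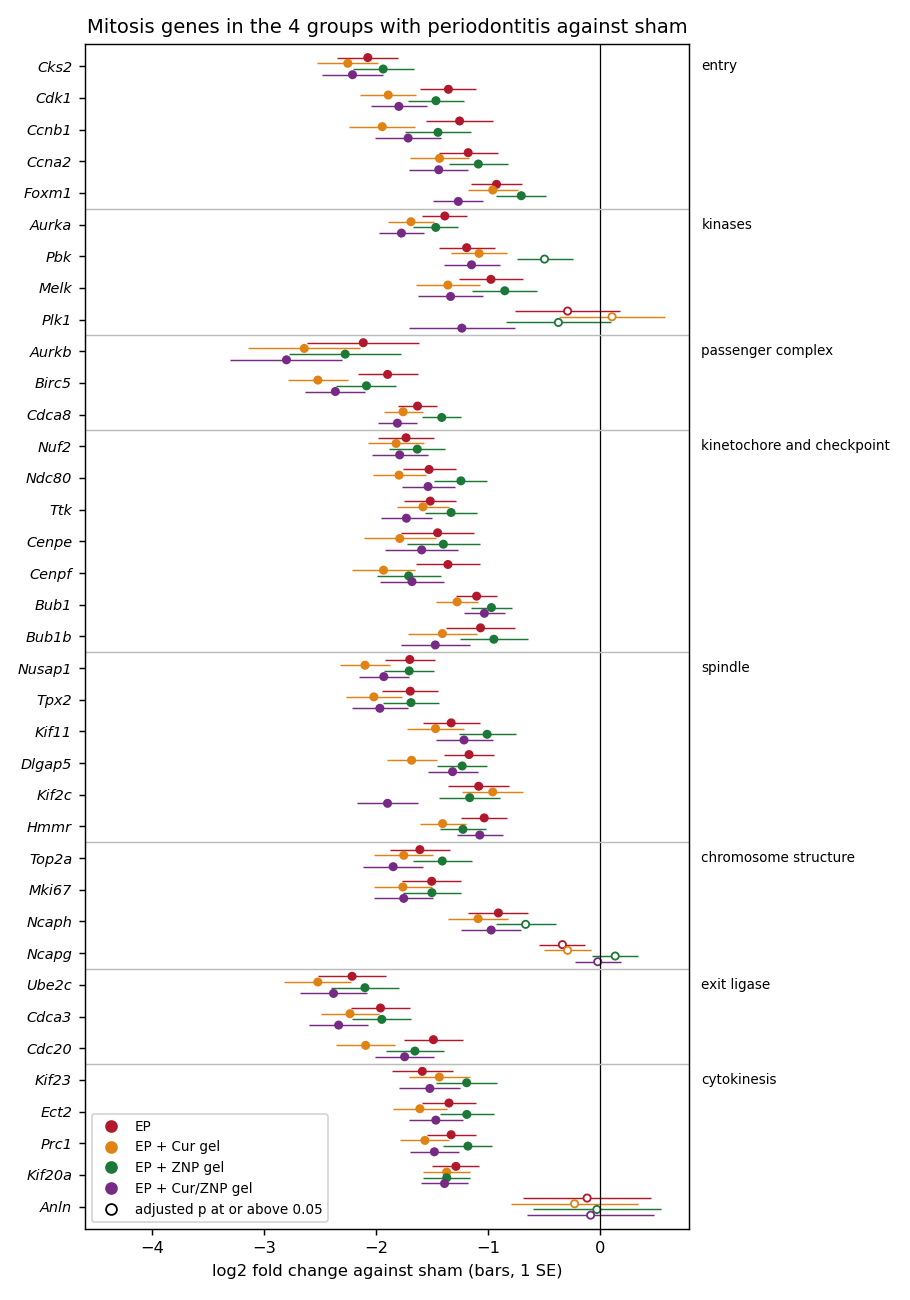
Log2 fold change against sham of each of the 37 mitosis genes, by role (names at the right), with 1 SE, for EP and for the 3 gels. Filled points passed the test (adjusted p under 0.05), and nearly all points lie left of 0, with Ncapg, Anln and, except under Cur/ZNP gel, Plk1 near it.

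The mean of log2(normalized count + 1) over the 37 genes was taken in each library to show how the libraries lay. It was 8.63, 8.56, 8.73, 8.99 and 9.21 in EP 1 to EP 5, against 10.53, 10.13, 10.32, 9.57 and 10.29 in Sham 1 to Sham 5. In the gel groups it ran from 8.16 to 9.08 with Cur gel, from 8.37 to 9.30 with ZNP gel and from 8.28 to 8.89 with Cur/ZNP gel. Every sham library lay above all 20 others, and the 4 groups with periodontitis overlapped with each other. Sham 4 was the lowest sham library, and it held the lowest sham value for 31 of the 37 genes. The 37 genes together took 0.0208 to 0.0496% of the reads of an EP library and 0.0363 to 0.123% of a sham library. The share was 0.0199 to 0.0484% with Cur gel, 0.0200 to 0.0513% with ZNP gel and 0.0221 to 0.0384% with Cur/ZNP gel. By this share Sham 4, which had the smallest size factor (0.492), lay below the highest library of each other group. The other sham libraries lay above all 20 libraries with periodontitis.

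**Figure D2:**
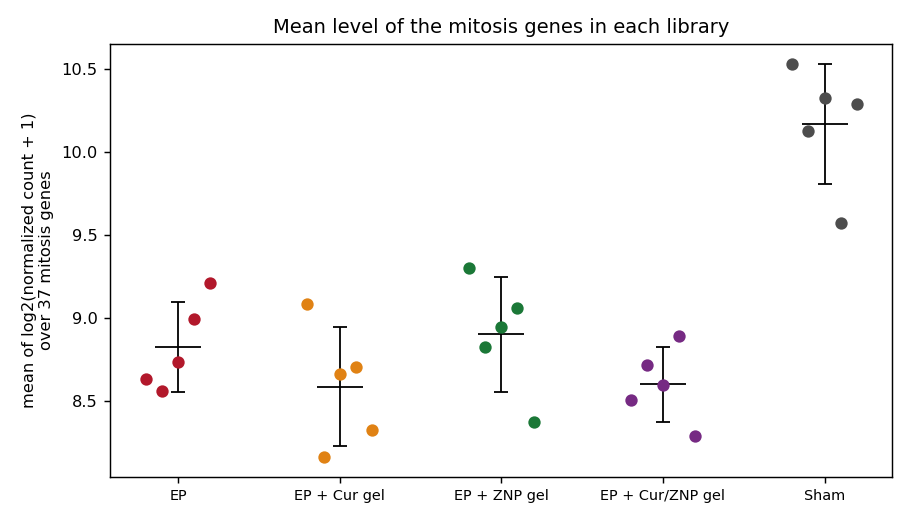
Mean of log2(normalized count + 1) over the 37 mitosis genes in each library (points), with the group mean and SD (n = 5), for the 5 groups. The sham libraries lie between 9.57 and 10.53 and the other 20 between 8.16 and 9.30.

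The promoters of the members were examined for the letters that mark cell cycle promoters. The CHR element, whose core is TTTGAA, is bound by the MuvB complex, which holds these genes off in resting cells and activates them in dividing cells, and the CCAAT box is bound by the factor NF-Y. The stretch from 250 bases before to 50 after the gene's start was read from the RefSeq table (build GRCr8), which held 31 of the 37 genes. TTTGAA, on either strand, was present in 20 of these 31 genes (64.5%) and in 18.3% of all 33469 promoters of that length. At least 2 CCAAT, on either strand, were present in 16 genes (51.6%) and in 11.2% of all promoters. Both together were present in 13 genes (41.9%) and in 2.12% of all promoters. Of the 24 TTTGAA matches, 20 began between 100 bases before the start and 10 after it, and 2 shared letters with a CCAAT match. A match is only a run of letters, and binding was not measured. Plk1, Ncapg and Anln, which did not pass between EP and sham, are among the genes with TTTGAA. Whether the matches go with the difference from sham was not tested.

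The 150 bases before the start are shown for 5 genes that were lower in EP than in sham (Cdk1, Ccnb1, Cks2, Top2a and Cdc20) and for 2 that did not pass (Ncapg and Anln). Capitals mark TTTGAA and CCAAT on either strand (TTCAAA and ATTGG on the strand shown).
Cdk1 (chr20:19265143-19265292, plus strand): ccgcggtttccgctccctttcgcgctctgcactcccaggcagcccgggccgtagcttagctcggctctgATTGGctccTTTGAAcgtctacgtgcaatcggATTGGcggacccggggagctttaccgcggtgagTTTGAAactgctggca
Ccnb1 (chr2:33655226-33655375, minus strand): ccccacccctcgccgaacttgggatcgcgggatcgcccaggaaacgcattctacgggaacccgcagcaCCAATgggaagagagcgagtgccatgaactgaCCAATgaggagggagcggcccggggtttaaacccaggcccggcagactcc
Cks2 (chr17:13727520-13727669, minus strand): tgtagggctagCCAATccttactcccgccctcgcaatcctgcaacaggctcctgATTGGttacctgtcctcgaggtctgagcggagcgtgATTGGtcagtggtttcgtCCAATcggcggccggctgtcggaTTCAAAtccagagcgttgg
Top2a (chr10:84473094-84473243, minus strand): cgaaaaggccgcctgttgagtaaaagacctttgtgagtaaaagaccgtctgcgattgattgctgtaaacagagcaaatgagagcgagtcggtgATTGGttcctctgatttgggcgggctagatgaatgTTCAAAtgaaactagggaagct
Cdc20 (chr5:137255800-137255949, minus strand): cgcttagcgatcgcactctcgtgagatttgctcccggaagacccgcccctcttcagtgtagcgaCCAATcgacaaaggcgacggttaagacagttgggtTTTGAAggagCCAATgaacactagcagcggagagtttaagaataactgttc
Ncapg (chr14:69645446-69645595, minus strand): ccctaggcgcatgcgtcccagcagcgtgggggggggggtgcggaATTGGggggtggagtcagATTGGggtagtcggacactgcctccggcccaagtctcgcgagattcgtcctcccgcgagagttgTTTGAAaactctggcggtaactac
Anln (chr8:29197514-29197663, minus strand): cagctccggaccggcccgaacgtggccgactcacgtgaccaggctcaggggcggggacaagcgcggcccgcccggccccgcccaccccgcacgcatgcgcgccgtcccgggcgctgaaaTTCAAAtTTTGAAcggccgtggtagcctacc
Cdk1 and Cdc20 hold both kinds of letters close together, Ccnb1 holds CCAAT alone, and Anln holds a pair of TTTGAA runs with no CCAAT in this window. Ncapg, which did not pass, holds TTTGAA and CCAAT as Cks2 and Top2a do.

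Entry into mitosis is driven by Cdk1, the kinase that cyclins activate, by the cyclins Ccnb1 and Ccna2, by Cks2, a small subunit that docks Cdk1 to its substrates, and by Foxm1, the transcription factor that switches on many genes of late cell cycle. All 5 were lower in EP than in sham, and all 5 were lower in each gel group than in sham. Cdk1 (chromosome 20, 20576377–20591549, Rnor_6.0) had 439.8, 359, 585, 684 and 570.2 normalized counts in EP, against 1662, 995, 1850.1, 984 and 1305 in sham. Values were 546, 245, 424, 425 and 231 with Cur gel, 704, 473, 446, 483 and 340.4 under ZNP gel and 379, 402, 346, 479 and 307 for the combined Cur/ZNP gel. No library with periodontitis reached the lowest sham library. The difference between EP and sham was -1.35 (SE 0.25, adjusted p = 0.000521) on the log2 scale, and against sham it was -1.89 under Cur gel, -1.46 under ZNP gel and -1.79 under Cur/ZNP gel. Ccnb1 had 449, 400.4, 419, 539 and 629 normalized counts in EP, against 1548, 1421, 1472, 435 and 1393 in sham. Here 4 sham libraries lay far above EP and Sham 4 lay among the EP libraries. Rats given Cur gel had 444, 246, 367, 344 and 167, ZNP gel rats 551, 381, 486, 392 and 325 and Cur/ZNP gel rats 437, 399.7, 282, 329 and 317, and again only Sham 4 lay within their range. The difference between EP and sham was -1.25 (SE 0.30, adjusted p = 0.00276), and the gel groups differed from sham by -1.94 under Cur gel, -1.45 under ZNP gel and -1.71 under Cur/ZNP gel.

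Foxm1 had 485, 468, 400.2, 432 and 404 normalized counts in EP, against 1043, 871, 698, 638 and 964 in sham. Foxm1 counts were 595, 314, 486, 510.3 and 305 under Cur gel, 611, 541, 552, 540.1 and 346 under ZNP gel and 296, 442, 450.3, 401 and 205 under Cur/ZNP gel. No library with periodontitis reached sham, although ZNP 1 came close to Sham 4. The difference was -0.92 (SE 0.22, adjusted p = 0.00332) for EP and -0.70 (SE 0.22, adjusted p = 0.0214) for ZNP gel. With ZNP gel the call ended without ZNP 5 (adjusted p = 0.0700) or without Sham 1 (adjusted p = 0.0624). It also ended with each library scaled to its total reads (adjusted p = 0.343) and with ZNP gel and sham fitted alone (adjusted p = 0.0541). With the most-read transcript (adjusted p = 0.0592), without EP 5, Sham 1 and Sham 4 (0.0651) and without Cur/ZNP 2, Sham 1, Sham 3 and Sham 4 (0.120) it ended too. Cks2 showed the largest difference of the role, -2.07 (SE 0.27, adjusted p = 8.74e-05) in EP, and Foxm1 the smallest. Ccna2 overlaps Exosc9 on the opposite strand, which averaged 1412 normalized counts, and whether the counting used strand is not given in the sources used here.

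The kinases of mitosis were mixed. Aurka, which matures the spindle poles, and Melk and Pbk, kinases that are made mainly in dividing cells, were lower in EP than in sham, whereas Plk1, the Polo kinase that acts from entry to division, did not pass. Aurka had 249.5, 246, 251, 343 and 344 normalized counts in EP, against 944, 699.6, 852, 569 and 695 in sham. The Cur gel rats had 324, 268, 279.5, 189.7 and 138, those given ZNP gel 278, 219, 301, 284 and 263 and those given Cur/ZNP gel 268, 186, 215, 232 and 189. All 20 of these libraries lay below all sham libraries, and the difference was -1.38 (SE 0.20, adjusted p = 0.000127) in EP, the largest of the role. Melk differed by -0.97 (SE 0.29, adjusted p = 0.0118) in EP and by -0.85 (SE 0.29, adjusted p = 0.0293) with ZNP gel. Without ZNP 2, ZNP 5, Sham 1 or Sham 3 the ZNP gel call for Melk ended (adjusted p = 0.0512, 0.0861, 0.0577 and 0.0601). It also ended with each library scaled to its total reads (adjusted p = 0.209) and without EP 5, Sham 1 and Sham 4 (adjusted p = 0.0751). Without Cur/ZNP 2, Sham 1, Sham 3 and Sham 4 it ended as well (adjusted p = 0.250). Pbk differed by -1.19 (SE 0.25, adjusted p = 0.00117) in EP, while with ZNP gel its difference of -0.49 (SE 0.25, adjusted p = 0.132) did not pass.

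Plk1 had 584, 1846, 1349, 442 and 921 normalized counts in EP, against 1425, 1248, 1141, 581 and 1363 in sham. Values were 1348, 888, 1168, 2039 and 824 with Cur gel, 1029.6, 1766, 435, 783 and 718 under ZNP gel and 306, 843, 1294, 328 and 203 for the combined Cur/ZNP gel. Its values were widely spread in every group. EP 2, Cur 4 and ZNP 2 lay above every sham library, while Cur/ZNP 1, 4 and 5 lay below every other library. The difference from sham was -0.29 (SE 0.47, adjusted p = 0.656) in EP, 0.11 (SE 0.47, adjusted p = 0.868) with Cur gel and -0.37 (SE 0.47, adjusted p = 0.570) with ZNP gel. With Cur/ZNP gel Plk1 passed at -1.23 (SE 0.47, adjusted p = 0.0422). This call ended by edgeR (adjusted p = 0.114) and by DESeq2 (adjusted p = 0.0903), and also on leaving out Cur/ZNP 1, 4 or 5 or Sham 1, 2, 3 or 5 (adjusted p = 0.0638 to 0.136).

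The chromosomal passenger complex, made of the kinase Aurkb, the survivin subunit Birc5 and the borealin subunit Cdca8, corrects wrong attachments of chromosomes and later marks the plane of division. All 3 were lower in EP than in sham, with a median of -1.90. Birc5 had 201, 303, 234, 403 and 343 normalized counts in EP, against 1828, 1008, 769.7, 770.4 and 1301 in sham. Rats given Cur gel had 239, 133, 245, 192 and 151, ZNP gel rats 398, 195, 258, 287 and 177 and Cur/ZNP gel rats 210.5, 180.3, 228, 275 and 163. Here all 20 libraries with periodontitis lay below sham, and the difference was -1.90 (SE 0.27, adjusted p = 0.000110) in EP and -2.52 under Cur gel, -2.08 under ZNP gel and -2.36 under Cur/ZNP gel. Cdca8 showed the smallest difference of the role in EP, -1.63 (SE 0.17, adjusted p = 1.42e-05).

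Aurkb had 357, 424, 765, 792 and 1644 normalized counts in EP, against 6191, 1324, 1171, 12086 and 1978 in sham. Aurkb counts were 552, 275, 641, 462 and 538 under Cur gel, 674, 612, 683, 727 and 421 under ZNP gel and 425, 424, 379, 663 and 308 under Cur/ZNP gel. Sham 1 and Sham 4 lay far above the other sham libraries, and EP 5 lay above Sham 2 and Sham 3. The difference was -2.11 (SE 0.50, adjusted p = 0.00276) in EP and -2.64 under Cur gel, -2.27 under ZNP gel and -2.80 under Cur/ZNP gel. With EP and sham fitted alone it did not pass (adjusted p = 0.0515), nor without Cur/ZNP 2, Sham 1, Sham 3 and Sham 4 (-1.24, adjusted p = 0.0964). Most of the high values came from the longer of its 2 transcripts, ENSRNOT00000091016.1, with 5777 normalized counts in Sham 1 and 10547 in Sham 4, against 588 to 1655 in the other sham libraries. Tekt1, a gene of motile cilia picked after its values were seen, was also high in the same libraries, with 457 normalized counts in EP 5, 550.5 in Sham 1 and 1529 in Sham 4, against at most 262 in any other library. The part of these other cells in the Aurkb value was not tested. Without EP 5, Sham 1 and Sham 4, Aurkb still passed, and 35 of the 37 genes were lower in EP. Beside them, 14.8% of all genes were lower and 12.7% higher. Over the 25 libraries the longer Aurkb transcript had correlations of 0.81 with Tekt1, 0.79 with Mki67 and 0.78 with Birc5.

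Kinetochore and checkpoint genes formed the largest role, and all 7 (Bub1, Bub1b, Ttk, Ndc80, Nuf2, Cenpe and Cenpf) were lower in EP and in each gel group than in sham. Ndc80 and Nuf2 form the arm that grips the microtubule, Bub1, Bub1b and Ttk act in the checkpoint, and Cenpe and Cenpf are large proteins of the outer kinetochore. Ndc80 had 212, 214, 239.6, 221 and 354 normalized counts in EP, against 938, 605, 944, 494 and 645 in sham. The Cur gel rats had 262, 169, 221, 187 and 184, those given ZNP gel 415, 336, 263, 355 and 175 and those given Cur/ZNP gel 197, 257, 227, 354 and 202. The groups with periodontitis stayed below sham in all libraries, and the difference was -1.52 (SE 0.24, adjusted p = 0.000174) in EP and -1.79 under Cur gel, -1.24 under ZNP gel and -1.53 under Cur/ZNP gel. Bub1b had 397, 219.7, 379, 356 and 433 normalized counts in EP, against 826, 936, 716, 352 and 1057 in sham. Values were 438, 144, 343, 309 and 232 with Cur gel, 475, 276, 374, 519 and 303 under ZNP gel and 260, 294, 303, 326 and 165 for the combined Cur/ZNP gel. Sham 4 lay within the EP range, and the other 4 sham libraries lay above every library with periodontitis. The difference was -1.07 (SE 0.31, adjusted p = 0.00967) in EP, the smallest of the role, while Nuf2 had the largest, -1.73 (SE 0.25, adjusted p = 0.000120). Ttk differed by -1.51, Cenpe by -1.45, Cenpf by -1.36 and Bub1 by -1.10 in EP. With ZNP gel Bub1b differed by -0.95 (SE 0.31, adjusted p = 0.0226), and this call ended without ZNP 2, ZNP 5, Sham 1 or Sham 5 (adjusted p = 0.0525 to 0.0573). It also ended with each library scaled to its total reads (adjusted p = 0.220) and with ZNP gel and sham fitted alone (adjusted p = 0.0708). Without Cur/ZNP 2, Sham 1, Sham 3 and Sham 4 it ended as well (adjusted p = 0.0535).

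Among the 6 genes of the spindle, all were lower in EP and in each gel group than in sham. Kif11 is the motor that pushes the spindle poles apart, Tpx2 activates Aurora A on microtubules, Nusap1, Hmmr and Dlgap5 bind and stabilise spindle microtubules, and Kif2c shortens microtubules to release wrong attachments. Kif11 had 562, 416, 429.8, 651 and 886 normalized counts in EP, against 1808, 1352, 1374, 951 and 1818 in sham. Rats given Cur gel had 817, 386, 474, 550.3 and 434, ZNP gel rats 886, 592, 829, 923 and 441 and Cur/ZNP gel rats 581, 607, 595, 886 and 465. The highest libraries of the EP, ZNP gel and Cur/ZNP gel groups came close to Sham 4 but did not reach it. The difference was -1.33 (SE 0.25, adjusted p = 0.000650) in EP and -1.47 under Cur gel, -1.01 under ZNP gel and -1.21 under Cur/ZNP gel. Nusap1 showed the largest difference of the role in EP, -1.70 (SE 0.22, adjusted p = 8.74e-05), and Hmmr the smallest, -1.03 (SE 0.21, adjusted p = 0.000833). Tpx2 differed by -1.69 and Dlgap5 by -1.17. Kif2c differed by -1.08 (SE 0.27, adjusted p = 0.00424) in EP and by -1.90 (SE 0.27, adjusted p = 8.02e-05) with Cur/ZNP gel. With only the most-read transcript of each gene, Kif2c did not pass in EP (-0.86, adjusted p = 0.363), with Cur gel (-1.61, adjusted p = 0.0812) or with ZNP gel (-1.08, adjusted p = 0.255).

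Of the 4 chromosome structure genes, 3 were lower in EP. Top2a, the topoisomerase that untangles sister chromatids, Mki67, the antigen by which pathologists count cycling cells, and Ncaph, a subunit of condensin, were lower in EP than in sham, while Ncapg, another condensin subunit, did not pass. Mki67 had 2021, 2005, 2455, 3172 and 3519 normalized counts in EP, against 10378, 6065, 8269, 5484 and 7095 in sham. Mki67 counts were 3085, 1434, 2591, 2143 and 1855 under Cur gel, 3636, 2249, 2893, 3446 and 1372 under ZNP gel and 1965, 2499, 1931, 3103 and 1590.2 under Cur/ZNP gel. All libraries with periodontitis lay below all sham libraries, and the difference was -1.50 (SE 0.26, adjusted p = 0.000341) in EP and -1.76 under Cur gel, -1.50 under ZNP gel and -1.75 under Cur/ZNP gel. Top2a had 1119, 893, 1391, 1924 and 1933 normalized counts in EP, against 5638, 3258, 4302, 3817 and 4503 in sham. The Cur gel rats had 1691, 761, 1623, 1286 and 1167, those given ZNP gel 2253, 1316, 1773, 1914 and 1027 and those given Cur/ZNP gel 949.7, 1484, 934, 1819 and 943. Here too no library reached sham, and the difference was -1.61 (SE 0.27, adjusted p = 0.000256) in EP, the largest of the role. Ncaph differed by -0.91 (SE 0.27, adjusted p = 0.0114) in EP and by -0.66 (SE 0.27, adjusted p = 0.0618) with ZNP gel, which did not pass.

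Ncapg had 244, 233, 229.7, 278 and 347 normalized counts in EP, against 404, 381, 235, 250 and 446 in sham. Values were 305, 266, 259.7, 300.1 and 235 with Cur gel, 345, 366, 334, 536 and 288 under ZNP gel and 346, 237, 361, 443 and 289 for the combined Cur/ZNP gel. All groups overlapped, and ZNP 4 was the highest of all 25 libraries. The difference from sham was -0.33 (SE 0.21, adjusted p = 0.207) in EP, -0.29 (SE 0.21, adjusted p = 0.278) with Cur gel, 0.14 (SE 0.21, adjusted p = 0.634) with ZNP gel and -0.02 (SE 0.21, adjusted p = 0.953) with Cur/ZNP gel. The 95% interval for EP, -0.76 to 0.09, did not reach the median of the list.

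The genes of exit from mitosis had a median difference of -1.96 between EP and sham, the largest of the 8 roles. Cdc20 activates the anaphase-promoting ligase, Ube2c is the ubiquitin-conjugating enzyme that works with it, and Cdca3 is a trigger of entry that the ligase destroys. All 3 were lower in EP and in each gel group than in sham. Ube2c had 161, 127, 233, 463 and 360.4 normalized counts in EP, against 1623, 729.9, 1437, 1020.4 and 994 in sham. Rats given Cur gel had 231, 135, 268, 185 and 176, ZNP gel rats 389, 198, 271, 279 and 204 and Cur/ZNP gel rats 175, 226, 223, 258 and 196. The groups did not overlap with sham, and the difference was -2.21 (SE 0.30, adjusted p = 9.16e-05) in EP, the largest of the list, and -2.52 under Cur gel, -2.10 under ZNP gel and -2.38 under Cur/ZNP gel. Cdc20 had 663, 362, 500.3, 774 and 822 normalized counts in EP, against 2048, 2024, 2205, 864 and 1679 in sham. Cdc20 counts were 614, 313, 452, 384 and 279.8 under Cur gel, 679.9, 416, 525, 635 and 458 under ZNP gel and 501, 539.9, 373, 571 and 545 under Cur/ZNP gel. Sham 4 lay only just above EP 5, and the other sham libraries lay well above all libraries with periodontitis. The difference was -1.49 (SE 0.26, adjusted p = 0.000372) in EP, the smallest of the role, and Cdca3 differed by -1.96 (SE 0.26, adjusted p = 8.82e-05).

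Cytokinesis, the cutting of the cell, needs Kif23, Prc1 and Kif20a, which bundle the midzone microtubules and carry proteins to them, Ect2, which switches on RhoA at the cell's equator, and anillin (Anln), the scaffold of the contractile ring. The first 4 were lower in EP and in each gel group than in sham. Kif23 had 454, 586, 412, 543 and 786 normalized counts in EP, against 2158, 1584, 2275, 827 and 1782 in sham. The Cur gel rats had 947, 393, 547, 638 and 611, those given ZNP gel 1093, 679.7, 770.1, 765 and 423 and those given Cur/ZNP gel 453, 644, 646, 609 and 515. EP and sham did not overlap, while Cur 1 and ZNP 1 lay above Sham 4. The difference was -1.59 (SE 0.27, adjusted p = 0.000307) in EP, the largest of the role. Prc1 differed by -1.33, Ect2 by -1.35 and Kif20a by -1.28 (SE 0.21, adjusted p = 0.000234). Kif20a overlaps Cdc23 on the opposite strand, which averaged 1827 normalized counts over the 25 libraries.

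The comparison of Anln rested on 1 library. Anln had 905, 629.6, 633, 534 and 959 normalized counts in EP, against 913, 2049, 1080.4, 67.1 and 1995 in sham, where Sham 4 was the lowest of all 25 libraries and Sham 2 and Sham 5 were the highest. Values were 829, 780, 497, 616 and 633 with Cur gel, 823, 583, 807, 1002 and 644 under ZNP gel and 793, 705, 702, 804 and 653 for the combined Cur/ZNP gel. The difference from sham was -0.11 (SE 0.57, adjusted p = 0.891) in EP and -0.23 under Cur gel, -0.03 under ZNP gel and -0.08 under Cur/ZNP gel, and none of these passed. Without Sham 4 Anln passed in all 4 comparisons and differed from sham by -0.99 in EP (adjusted p = 0.00298), -1.10 with Cur gel (adjusted p = 0.00148), -0.90 with ZNP gel (adjusted p = 0.00822) and -0.96 with Cur/ZNP gel (adjusted p = 0.00389). Sham 4 is the sham library in which the nasal gland genes took 21.9% of the reads. The part of that tissue in the low value was not tested.

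**Figure D3:**
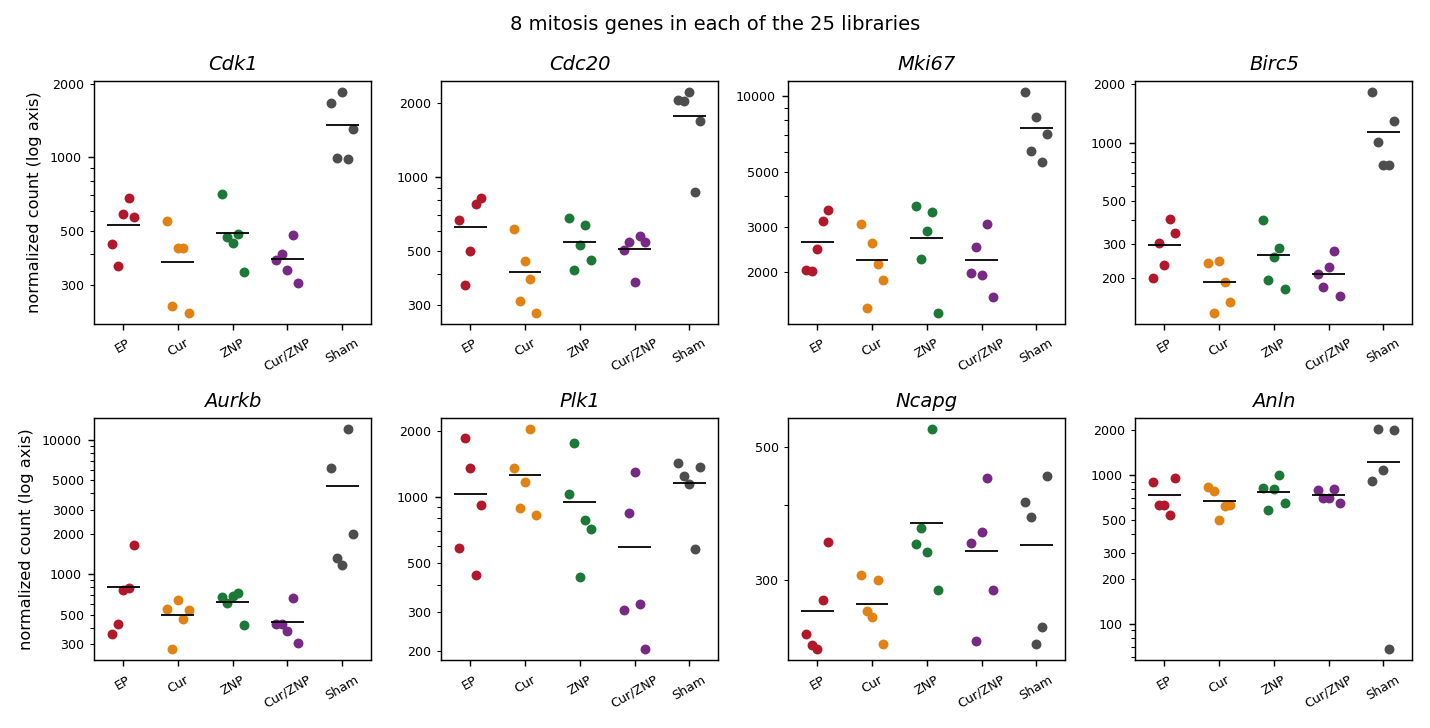
Normalized counts (log axis) of 8 mitosis genes in each library (points) with the group mean (line), for the 5 groups. Cdk1, Cdc20, Mki67 and Birc5 separate sham from all other libraries, Aurkb is spread by 2 sham libraries, and Plk1, Ncapg and Anln overlap between the groups.

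The next question was whether these genes differed between a gel group and EP. No member passed the test: 0 of 37 genes passed for Cur gel, for ZNP gel or for Cur/ZNP gel against EP by limma, and none passed by edgeR or DESeq2. Over all genes tested, 0% were lower and 0% higher with Cur gel, 0.00621% lower and 0% higher with ZNP gel, and 0% lower and 0% higher with Cur/ZNP gel. The median difference of the 37 genes was -0.26 with Cur gel, 0.09 with ZNP gel and -0.21 with Cur/ZNP gel, against -0.01, 0.01 and -0.005 over all genes. At an unadjusted p under 0.05, 5 members were lower with Cur gel (Birc5, Ccnb1, Cdc20, Cdk1 and Dlgap5) while 1.04% of all genes were lower and 0.721% higher, 2 were higher with ZNP gel (Ncapg and Pbk) while 1.61% of all genes were higher and 1.38% lower, and 1 was lower with Cur/ZNP gel (Kif2c) while 7.81% of all genes were lower and 4.95% higher. These genes were picked after their values were seen.

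The intervals give the sizes these data leave possible. Mki67 differed from EP by -0.26 (95% interval -0.80 to 0.29, adjusted p = 1) with Cur gel, by 0.00 (95% interval -0.54 to 0.54, adjusted p = 1) with ZNP gel and by -0.25 (95% interval -0.79 to 0.29, adjusted p = 0.740) with Cur/ZNP gel. Cdk1 differed from EP by -0.54 (95% interval -1.06 to -0.02, adjusted p = 1) with Cur gel, by -0.11 (95% interval -0.63 to 0.41, adjusted p = 1) with ZNP gel and by -0.44 (95% interval -0.96 to 0.08, adjusted p = 0.459) with Cur/ZNP gel. The 95% interval lay within 1 log2 unit of 0, a 2-fold difference, for 28 of the 37 genes with Cur gel, 33 with ZNP gel and 30 with Cur/ZNP gel. The median half-width of the interval was 0.54.

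The gels were also compared with each other. None of the 37 genes passed between Cur/ZNP gel and Cur gel, between Cur/ZNP gel and ZNP gel or between ZNP gel and Cur gel by limma, edgeR or DESeq2, as none of all genes tested did by limma (0% in each direction in each of the 3). The lowest adjusted p of a member was 0.294, 0.899 and 1 in these 3 comparisons. At an unadjusted p under 0.05, 2 members were lower in the first (Kif2c and Plk1, beside 7.53% of all genes lower and 3.53% higher), 4 in the second (Cdca8, Foxm1, Kif2c and Pbk, beside 2.68% lower and 2.4% higher), and 2 were higher in the third (Ndc80 and Pbk, beside 0.69% higher and 0.447% lower). With Cur/ZNP gel, the largest differences were those of Plk1 and Kif2c. Plk1 differed by -1.34 (95% interval -2.32 to -0.36, adjusted p = 0.307) for Cur/ZNP gel over Cur gel, and by -0.94 (95% interval -1.92 to 0.03, adjusted p = 0.403) for Cur/ZNP gel over EP. Kif2c had 147, 399.7, 289, 297 and 177 normalized counts with Cur/ZNP gel, against 489, 490, 409.8, 754 and 316 with Cur gel, 430, 532, 354, 439 and 322 with ZNP gel and 253, 448, 631, 391 and 539.8 in EP. Its difference was -0.81 (95% interval -1.38 to -0.25, adjusted p = 0.293) for Cur/ZNP gel over EP and -0.94 (95% interval -1.51 to -0.37, adjusted p = 0.294) for Cur/ZNP gel over Cur gel. The Cur/ZNP gel values of Kif2c overlapped with those of the other 3 groups.

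**Figure D4:**
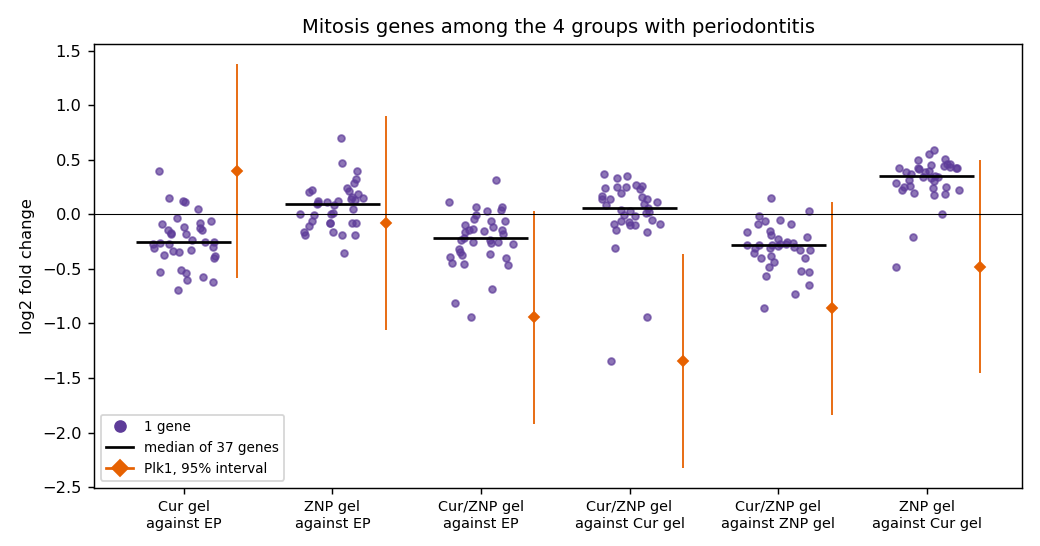
Log2 fold changes of the 37 mitosis genes (points, spread sideways at random) and their median (line) in the 6 comparisons among the groups with periodontitis. Plk1 is drawn with its 95% interval. The medians lie between -0.28 (Cur/ZNP gel against ZNP gel) and 0.35 (ZNP gel against Cur gel), and no gene passed the test.

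How closely the members varied together was described across the 25 libraries, which share their size factors and contain the group differences. The Pearson correlation of a gene's log2 value with the mean of the other members was 0.86 to 0.98 for 32 of the 37 genes, with Mki67 at the top. It was 0.74 for Aurkb and 0.75 for Kif2c. For Ncapg it was 0.36, for Plk1 0.27 and for Anln 0.25. With each group's own mean subtracted, so that only differences among rats of a group remained, the correlation was 0.92 for Mki67 and 0.94 for Kif20a. It was 0.52 for Ncapg, 0.44 for Anln, 0.22 for Plk1 and 0.12 for Aurkb. In the EP group EP 5 held the highest value for 26 of the 37 genes, in the Cur gel group Cur 1 for 31, in the ZNP gel group ZNP 1 for 28 and in the Cur/ZNP gel group Cur/ZNP 4 for 26.

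The 10 genes outside the list that followed it most closely had correlations of 0.95 to 0.97 with the mean of its standardized log2 values over the 25 libraries. They were Aspm, AABR07000658.2, Kif20b, Arhgap11a, Knstrn, Kif22, Espl1, Spc25, Kif18b and Cenpw. Aspm, a spindle pole protein, was closest, and it differed between EP and sham by -1.30 (SE 0.21). The correlation contains the group differences, so genes picked by it differ from sham by the way they were picked. Espl1 is separase, the protease that parts sister chromatids, Spc25 is a partner of Ndc80, and Kif20b, Kif22 and Kif18b are kinesins of mitosis.

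Other cell cycle lists were set beside the 37 genes to see where the difference lay in the cycle. Of 59 other mitosis genes, 46 were lower in EP than in sham, with a median of -1.10 on the log2 scale, against 18.8% of all genes. Pttg1, the securin that holds separase back, differed by -2.06 (SE 0.28, adjusted p = 8.74e-05), and Knstrn, a spindle and kinetochore protein, by -1.80 (SE 0.25, adjusted p = 0.000105). Under Cur gel 48 of the 59 were lower (19.1% of all genes), under ZNP gel 41 (15.4%) and under Cur/ZNP gel 49 (19.5%). Of 35 genes of DNA replication and S phase, 20 were lower in EP, with a median of -0.62. Rfc5, a subunit of the clamp loader, differed by -0.93 (SE 0.15, adjusted p = 0.000254), and Gins4, a subunit of the replicative helicase, by -1.05 (SE 0.19, adjusted p = 0.000444). The counts were 17 with Cur gel, 8 with ZNP gel (median -0.20) and 15 with Cur/ZNP gel, beside the same shares of all genes. No gene of these lists was higher in any of the 4 comparisons by limma at the adjusted threshold. Whether the lists differ from each other was not tested.

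Regulators of the cell cycle were also counted. Of 12 G1 cyclins, kinases and E2F factors, 2 were lower in EP than in sham and 3 were higher, with a median of -0.21, close to the shares of all genes (18.8% lower and 18.8% higher). The activator E2f2 differed by -0.78 (SE 0.21, adjusted p = 0.00692) and the cyclin Ccne2 by -0.57 (SE 0.19, adjusted p = 0.0199), whereas E2f3 differed by 0.65 (SE 0.18, adjusted p = 0.00716), Ccnd2, a D-type cyclin, by 1.15 (SE 0.39, adjusted p = 0.0256) and its partner kinase Cdk6 by 0.86. With Cur gel 3 were lower and 3 higher, with ZNP gel 1 and 2, and with Cur/ZNP gel 5 and 1. Of 13 cell cycle inhibitors and pocket proteins, 5 were lower in EP and 2 higher, with a median of -0.26, beside the same shares of all genes. The CDK inhibitors Cdkn2c and Cdkn1b differed by -0.97 (SE 0.14, adjusted p = 0.000144) and -0.90 (SE 0.18, adjusted p = 0.000744), and Cdkn2b, Pkmyt1 and E2f4 by -2.19, -0.76 and -0.26. Wee1, the kinase that holds Cdk1 inactive, was higher, by 1.07 (SE 0.20, adjusted p = 0.000554), as was the retinoblastoma gene Rb1, by 0.82 (SE 0.25, adjusted p = 0.0125). The counts of this list were 4 lower and 2 higher with Cur gel, 2 and 2 with ZNP gel, and 4 and 2 with Cur/ZNP gel. Beside the gel counts of both lists, 19.1% of all genes were lower and 18.9% higher with Cur gel. These shares were 15.4% and 16.7% with ZNP gel, and 19.5% and 20.2% with Cur/ZNP gel.

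Subunits of the MuvB and DREAM complexes and of NF-Y, which read the CHR element and the CCAAT box, were also counted. Of these 11 genes, 6 were lower in EP than in sham and 2 higher, with a median of -0.33, beside 18.8% of all genes lower and 18.8% higher. Lin37 differed by -0.80 (SE 0.15, adjusted p = 0.000578) and Nfya, a subunit of NF-Y, by -0.50 (SE 0.10, adjusted p = 0.00115), whereas Lin52 differed by 1.08 (SE 0.24, adjusted p = 0.00157) and Tfdp2 by 0.80 (SE 0.26, adjusted p = 0.0181). With Cur gel 5 were lower and 2 higher, with ZNP gel 3 and 3, and with Cur/ZNP gel 6 and 3. The shares of all genes were 19.1% lower and 18.9% higher, 15.4% and 16.7%, and 19.5% and 20.2% in these comparisons.

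**Figure D5:**
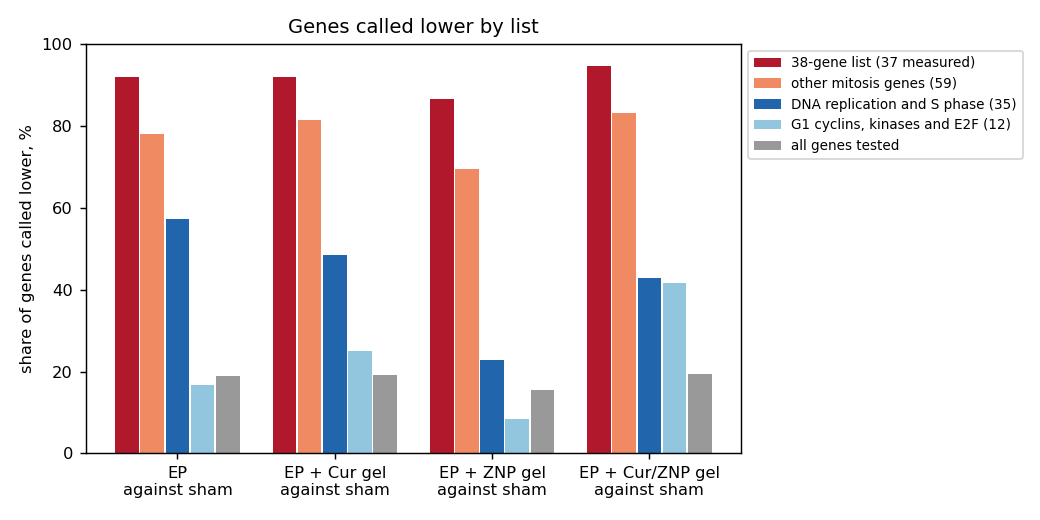
Share of genes called lower than sham (adjusted p under 0.05, limma) in EP and under the 3 gels, for the mitosis genes and for 3 other cell cycle lists, with all genes tested beside them. The bars of the mitosis genes stand between 86.5 and 94.6% and those of all genes between 15.4 and 19.5%.

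Markers of other cell types were also counted, beside 18.8% of all genes lower and 18.8% higher in EP than in sham. Of 9 basal keratinocyte markers, 4 were lower in EP than in sham (Krt5, Lamb3, Tp63 and Itga6), 0 were higher, and the median was -0.96. Their summed normalized count was 150963 to 382078 in EP, 195498 to 427446 in Cur gel rats, 183960 to 413184 in ZNP gel rats, 235747 to 369298 in Cur/ZNP gel rats and 120513 to 1724868 in sham. None of the 9 was at 0 in any group. In Sham 1 to Sham 5 the sums were 885762, 875704, 1724868, 120513 and 732837, so all sham libraries but Sham 4 lay above every library with periodontitis. Sham 4, with 21.9% nasal gland reads, had the lowest basal keratinocyte sum of all libraries. Its mean mitosis level was the lowest of sham, 9.57, above the highest library with periodontitis (9.30). Of 8 autonomic neuron markers tested, 7 were lower in EP, Chrna3, a subunit of the ganglionic acetylcholine receptor, by -7.67 (SE 1.56, adjusted p = 0.000937) and the neuropeptide gene Vip by -10.67 (SE 2.38, adjusted p = 0.00181). The sum over the 9 found was 25 to 135 in EP, 82 to 1338 in Cur gel rats, 67 to 103 in ZNP gel rats, 53 to 36060 in Cur/ZNP gel rats and 303 to 104964 in sham. In Sham 1 to Sham 5 the sums were 51881, 597, 104964, 41600 and 303, and the mean mitosis levels were 10.53, 10.13, 10.32, 9.57 and 10.29. Without the 4 libraries rich in these markers, 31 of 37 genes were lower in EP than in the 2 remaining sham libraries, beside 4.51% of all genes lower and 2.51% higher. In this setting Aurkb, Kif2c, Melk and Ncaph no longer passed by limma (adjusted p = 0.0691 to 0.142), while Anln did. The part of these other cells in the difference of the mitosis genes was not tested.

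Skeletal muscle and red cell transcripts went the other way, while 18.8% of all genes were higher in EP than in sham. Of 6 muscle markers, 5 were higher in EP than in sham, among them the actinin gene Actn2, by 3.97 (SE 1.26, adjusted p = 0.0169), and the muscle actin gene Acta1, by 3.45 (SE 1.15, adjusted p = 0.0222). The others that passed were Myh4, Ckm and Tnnt3. Their sum was 340147 to 1800853 in EP, 7847 to 2044351 in Cur gel rats, 316155 to 2893838 in ZNP gel rats, 323737 to 2512037 in Cur/ZNP gel rats and 20886 to 364939 in sham. In Cur 1 to Cur 5 the muscle sums were 56969, 2044351, 1037461, 7847 and 2031916, and that of Cur 4 lay below every sham library. The mean mitosis levels of these libraries were 9.08, 8.16, 8.66, 8.70 and 8.32. In each gel group the library with the highest muscle sum had the lowest mitosis level (Cur 2, ZNP 5 and Cur/ZNP 5). This was not so in EP or sham. All 3 red cell markers (Hbb, Alas2 and Slc4a1) were higher in EP, and their sum was 4087 to 10157 in EP, 7069 to 11830 in Cur gel rats, 4758 to 26812 in ZNP gel rats, 6435 to 9558 in Cur/ZNP gel rats and 795 to 2350 in sham. None of these markers was at 0 in a whole group. Their part in the difference of the mitosis genes was not tested.

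Among lymphoid markers, 0 of 11 B cell and plasma cell genes were lower in EP than in sham by limma (3 differed at an unadjusted p under 0.05), with a median of -2.07. With Cur/ZNP gel 8 of these 11 genes were lower than in sham, against 19.5% of all genes. Between EP and sham 18.8% of all genes were lower and 18.8% higher. The sum of the B cell list was 3161 to 85764 in EP, 1840 to 18749 in Cur gel rats, 7050 to 35983 in ZNP gel rats, 633 to 42313 in Cur/ZNP gel rats and 4836 to 121507 in sham. Of 6 germinal centre B cell markers, 2 were lower in EP (Mybl1 and Rgs13), and of 10 T cell and natural killer cell markers 1 was higher (Cd4) and 0 lower by limma, with a median of -1.02 and 2 at an unadjusted p under 0.05. The other 9 all had negative differences. Of 11 markers of differentiated keratinocytes, 2 were higher (Lor and Ivl), close to the share of all genes, and 0 were lower. The sums of the B cell list overlapped widely between EP and sham. EP 3 and EP 4, with 85764 and 85432, had mitosis levels of 8.73 and 8.99, within the range of the other EP libraries. In each gel group the library with the highest B cell sum also had the highest mitosis level. These were Cur 1 (18749 and 9.08), ZNP 1 (35983 and 9.30) and Cur/ZNP 4 (42313 and 8.89). In sham, Sham 4 had the highest B cell sum, 121507, and the lowest mitosis level, 9.57. The part of these cells in the difference of the mitosis genes was not tested.

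Of the remaining lists, 1 of 7 fibroblast markers was lower in EP than in sham (Thy1) and 1 higher (Dcn), and 1 of 6 endothelial markers was higher (Vwf). These counts were near the shares of all genes, 18.8% lower and 18.8% higher. None of 9 myeloid cell markers passed by limma, and 0 had an unadjusted p under 0.05. None of 5 salivary gland, 6 nasal gland and 1 enamel marker passed between EP and sham by limma, with 1, 0 and 0 at an unadjusted p under 0.05.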

How the data were processed

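Total RNA of the gingiva was made into ribosome-depleted stranded libraries by the authors. The deposited table holds transcripts on Rnor_6.0 with normalized counts, a signal that the authors made by dividing read counts by 1 DESeq2 size factor per library. The aligner and the counter are not given in the sources used here. Dividing by the step of each library gave whole reads for 100% of values (tolerance 0.01). Library totals were 61292453 to 70801162 reads in EP, 61098643 to 68583320 with Cur gel, 59749001 to 81791804 with ZNP gel, 58815120 to 62712128 with Cur/ZNP gel and 50690789 to 61490425 in sham. Of 41078 transcripts, 396 had no gene symbol and were kept under their own identifier.

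The transcripts of each gene were added up, and genes with at least 2 CPM in at least 1 library were tested with limma 3.58.1 in R 4.3.3 (trend and robust) on log2(normalized count + 1). All 25 libraries were in 1 model with 5 group means, and p-values were adjusted over the 16092 genes. Fold changes are on this log2 scale, which understates those of low genes. Groups follow the labels, and the p-values rest on the spread between rats within groups, pooled over the 5 groups and shared in part across genes. The procedure was tested on simulated data. Alternatives were pseudocounts of 0.5 and 8, no filter, edgeR's filter, edgeR 4.0.16 and DESeq2 1.42.0 on the recovered reads, other scalings, pairs of groups alone, a replicate block, the most-read transcript, and leaving libraries out. Settings that leave out EP 5, Sham 1 and Sham 4, or Cur/ZNP 2, Sham 1, Sham 3 and Sham 4, were chosen after seeing the data.

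The members, their 8 roles, the other lists and the rules for naming genes were chosen with earlier results of these data known. Fixed genes of each role and every member that did not pass between EP and sham were given library by library. Of the other cell cycle lists, the 2 genes with the smallest p in each direction between EP and sham were named. Promoter sequences came from RefSeq (GRCr8), whose coordinates were not mixed with those of Rnor_6.0. A few results on single genes are not reported here. No chance test was run over a list.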

Additional observations from a re-analysis of the deposited data

Results flagged for a closer look

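In 90 groups of 5 libraries (17 genes and the mean mitosis level in 5 groups), 3 libraries lay far from the others of their group by Dixon's criterion (gap over range above 0.71), which flags about 1 in 20 groups by chance. Ccnb1 was 435 normalized counts in Sham 4, against 1393 to 1548 in the other sham libraries. Foxm1 was 346 in ZNP 5, against 540.1 to 611 in the other ZNP gel libraries. Ndc80 was 354 in EP 5, against 212 to 239.6 in the other EP libraries.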

How the results depend on the processing

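The counts of members lower than sham were 34, 34, 32 and 35 of 37 in EP and under Cur gel, under ZNP gel and under Cur/ZNP gel. In every setting run all genes that passed were lower, and no member passed in the 6 comparisons among groups with periodontitis. Leaving out 1 library at a time gave 34 to 35, 34 to 35, 29 to 33 and 34 to 36. Without Sham 4, EP 3 and EP 4 the counts were 35, 35, 33 and 36, and without Cur/ZNP 2, Sham 1, Sham 3 and Sham 4 they were 31, 31, 22 and 32, while 725, 796, 247 and 617 of all 16092 genes were lower. Scaling each library to its total reads gave 34, 30, 21 and 29. This scaling moved the median of all genes to -0.11, 0.13, 0.17 and 0.13 in the same comparisons, and its calls over all genes were 1120 higher and 1909 lower in EP, 2367 and 835 with Cur gel, 1982 and 479 with ZNP gel, and 2693 and 748 with Cur/ZNP gel, against 3024 and 3033, 3049 and 3070, 2686 and 2476, and 3248 and 3134 with size factors. Against EP it moved the median of all genes to 0.27, 0.30 and 0.30 in the 3 gel groups. Over all genes, edgeR on the recovered reads called 2797 higher and 3155 lower in EP than in sham, and none for any gel against EP, where DESeq2 called 11 higher and 71 lower under Cur gel, 4 and 59 under ZNP gel, and 84 and 121 under Cur/ZNP gel, none of them a member.

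The replicate block gave 34, 34, 32 and 35 and changed no call count. The samples share only a number: of 50 pairs with the same number, 17 had deviations that correlated above 0.1, and of 200 pairs with different numbers 63 did. The labelled gingiva held RNA of glands, ganglia and muscle in amounts that differ between libraries, and all comparisons with sham rest on the same 5 libraries.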

Other observations

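Plk1 and Ncapg, which did not pass between EP and sham, each followed other genes than the list did, over the 25 libraries and as a description. Among rats of a group, Ncapg still had a correlation of 0.52 with the other members, and Plk1 of 0.22. The genes with the highest correlation were looked up after the values were seen. Plk1 was closest to Tmem51 (r = 0.96), Dsc2, a cadherin of desmosomes (0.93), and Ezr, which links membrane and actin (0.93). Ncapg was closest to Clspn, a factor of the replication checkpoint (0.76), S1pr2 (0.73) and Dnmt1, the maintenance DNA methyltransferase (0.71).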
